A study of Homo sapiens with 9 samples.

Results

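Contraction in smooth muscle, and in non-muscle cells that pull on their surroundings, needs actin filaments, myosin and a set of proteins that lie along the filament. The genes described here are 9 such genes: the kinase MYLK, the regulatory light chain MYL9, the tropomyosins TPM1 and TPM2, the filament-binding proteins TAGLN, CNN1 and CALD1, and the smooth muscle actins ACTA2 and ACTG2. They were taken by name, in a list made with earlier results of these data known. Every probe set annotated to 1 of them was used, whatever its values. This gave 21 probe sets among the 22215 human probe sets of the array, with 8 for CALD1, 4 for TPM1, 2 each for TPM2 and ACTA2, and 1 each for MYLK, MYL9, TAGLN, CNN1 and ACTG2.

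The cells were of the established line MDA-MB-231, from a human breast carcinoma that lacks oestrogen and progesterone receptors. Sensitive cells grown with 1 µM verapamil, which blocks calcium channels and the drug pump P-glycoprotein, were compared with a line resistant to docetaxel, kept in 1 µM verapamil and 2 nM docetaxel, and a line resistant to paclitaxel, kept in 1 µM verapamil and 7 nM paclitaxel. The sample descriptions give verapamil for all 3 groups, whereas the treatment protocol names it for the sensitive cells alone. The descriptions were followed here, and if the resistant lines had none, verapamil and resistance could not be told apart. Docetaxel and paclitaxel are taxanes, drugs that hold microtubules in their polymerised state. Each group holds 3 arrays from 3 passages of 1 line, so every p-value below measures the spread between passages of that line and not between independently selected lines. Resistance, the drug in the medium and the history of the line cannot be told apart in this design.

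RNA was hybridised to 9 Affymetrix HU133A arrays, 1 per passage. Median intensities lay between 33.7 and 43.9, and 24.0 to 27.0% of probe sets per array were under an intensity of 16. Arrays of 1 group correlated at 0.970 to 0.991 across probe sets and arrays of different groups at 0.901 to 0.981. The difference in log2 signal between the 3' and 5' GAPDH control probe sets ran from 0.0145 to 0.0389 in sensitive cells, from 0.00665 to 0.13 in docetaxel-resistant cells and from 0.0935 to 0.201 in paclitaxel-resistant cells. For the ACTB controls the same difference overlapped between groups, at -0.261 to -0.0173, -0.15 to -0.108 and -0.125 to 0.172. The mesenchymal filament gene VIM was abundant in every group (means 8335, 4682 and 5223 in sensitive, docetaxel-resistant and paclitaxel-resistant cells) and fell in both resistant lines (-0.74 and -0.60 on the log2 scale, limma adjusted p = 0.00254 and 0.00831). VIM was 1 of 5 markers of basal-like breast lines, which moved in both directions. EGFR rose in both resistant lines (1.56 and 1.49). CD44 fell with docetaxel resistance (-0.54, limma adjusted p = 0.048) and was not called with paclitaxel resistance (-0.20). AXL and CAV1 were not called in either line. Of 7 luminal epithelial markers none was called by limma, with adjusted p-values of 0.259 or more. Among them the keratin genes KRT8 (994, 999 and 1061), KRT18 (3640, 3325 and 3154) and KRT19 (1519, 1618 and 1428) were bright. CDH1 (83.3, 61.0 and 62.8), ESR1 (43.9, 37.3 and 42.2) and EPCAM (22.1, 14.8 and 14.3) were dim, and the progesterone receptor gene PGR was under 16 on all arrays.

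Calcium-bound calmodulin switches on myosin light chain kinase, the product of MYLK, which phosphorylates the regulatory light chain and lets myosin II pull on actin. Tropomyosin winds along the filament, and caldesmon (CALD1), calponin (CNN1) and transgelin (TAGLN) bind beside it and shape how myosin engages it. Many of these genes are classic targets of serum response factor, SRF, which binds a DNA element called the CArG box together with cofactors that sense the pool of unpolymerised actin. In the breast they are best known from myoepithelial cells and from activated fibroblasts.

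The promoters of 4 of the genes are shown because the genes differ in how they moved and in whether they carry that element. RefSeq promoters of build GRCh38.p14 were on hand for 7 of the 9 genes, and MYL9 and TAGLN had no entry. Each line gives the 250 bases before a transcription start, 5′ to 3′ on the strand of the gene, with a CArG box (CC, then 6 bases that are each A or T, then GG) or the same element with 1 C or G among those 6 bases in capitals.
MYLK, chr3:123620549-123620798, minus strand: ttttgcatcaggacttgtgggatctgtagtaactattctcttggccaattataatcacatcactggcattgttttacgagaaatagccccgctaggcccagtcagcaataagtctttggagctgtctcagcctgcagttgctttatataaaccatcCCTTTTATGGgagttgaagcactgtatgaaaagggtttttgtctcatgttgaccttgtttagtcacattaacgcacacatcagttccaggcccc
TPM1, chr15:63048239-63048488, plus strand: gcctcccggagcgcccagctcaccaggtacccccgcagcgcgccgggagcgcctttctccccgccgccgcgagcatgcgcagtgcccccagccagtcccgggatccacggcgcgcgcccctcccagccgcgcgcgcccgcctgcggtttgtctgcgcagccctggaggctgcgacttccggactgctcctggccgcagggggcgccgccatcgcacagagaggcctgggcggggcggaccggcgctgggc
ACTA2, chr10:88952774-88953023, minus strand: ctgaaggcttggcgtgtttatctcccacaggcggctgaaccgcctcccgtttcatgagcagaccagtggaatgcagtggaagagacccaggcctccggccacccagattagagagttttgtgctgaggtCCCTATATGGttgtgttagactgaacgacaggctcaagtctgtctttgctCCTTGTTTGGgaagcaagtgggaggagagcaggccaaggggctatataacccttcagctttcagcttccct
ACTG2, chr2:73892758-73893007, plus strand: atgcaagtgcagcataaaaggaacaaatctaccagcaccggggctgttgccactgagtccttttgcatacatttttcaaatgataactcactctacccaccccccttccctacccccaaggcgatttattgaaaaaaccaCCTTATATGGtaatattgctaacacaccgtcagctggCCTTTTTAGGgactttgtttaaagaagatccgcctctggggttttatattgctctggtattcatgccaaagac
The MYLK window holds 1 CArG box, CCTTTTATGG, which begins 94 bases before the start. It was the only MYLK start on hand. Whether the kinase transcript begins there, and which MYLK transcripts the array read, was not tested. The ACTG2 promoter holds 2, CCTTATATGG at 110 and CCTTTTTAGG at 73 bases before the start, and the ACTA2 promoter holds only the looser form, CCCTATATGG at 121 and CCTTGTTTGG at 71 bases. None of these forms lies in the TPM1 window. Searched on both strands, the CArG box was present in 2 of the 12 promoters of these genes, against 407 of all 35116 promoters of the same length (1.16%). The looser form was in 2 of the 12, the ACTA2 promoter and 1 of the CALD1 promoters (CCTAAAGAGG, 26 bases before the start), against 5.96% of all, and CATTCC, the MCAT element, was in 3 of the 12, against 11.9%. These are matches of letters and not measured binding.

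The contractile genes split into those that rose in a resistant line and those that could not be told from sensitive cells. In docetaxel-resistant cells 9 of the 21 probe sets were called higher and none lower, where 9.34% of all probe sets were called higher and 8.32% lower. The 9 belonged to only 3 genes, TPM1 (3), TAGLN (1) and CALD1 (5), so they are not independent of each other. In paclitaxel-resistant cells 8 were called higher and none lower, against 9.21% and 9.37% of all probe sets, and these belonged to MYLK, MYL9, TPM1, TAGLN and CALD1. Counted by normalised values that do not overlap, 10 probe sets lay wholly above the sensitive arrays in docetaxel-resistant cells and none below, against 15.3% and 18.9% of all, and 9 lay above and 3 below in paclitaxel-resistant cells, against 14.9% and 17.2%. The 3 below were dim probe sets of TPM1 (206117_at) and CALD1 (205525_at and 215199_at), genes with other probe sets called higher in that line. TPM2, CNN1, ACTA2 and ACTG2 had no called probe set in either line. The median log2 difference of the 21 probe sets was 0.35 in docetaxel-resistant and 0.25 in paclitaxel-resistant cells, beside -0.05 and -0.03 over all probe sets. With each gene read by its probe set of highest mean, 3 of 9 genes were called higher with docetaxel resistance and 4 with paclitaxel resistance. None was called lower, and 10.5% and 10.6% of all genes were called higher. Because the genes were chosen with earlier results of these data known, these shares are no test of the set. Both comparisons use the same 3 sensitive arrays, so they are not independent of each other. A probe set was called when limma's moderated test across all human probe sets, on log2(intensity + 16) after quantile normalisation, gave a Benjamini-Hochberg adjusted p below 0.05. All adjusted p-values below come from that test, differences are on that log2 scale, which understates changes of dim probe sets, and intensities are as deposited.

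**Figure D1:**
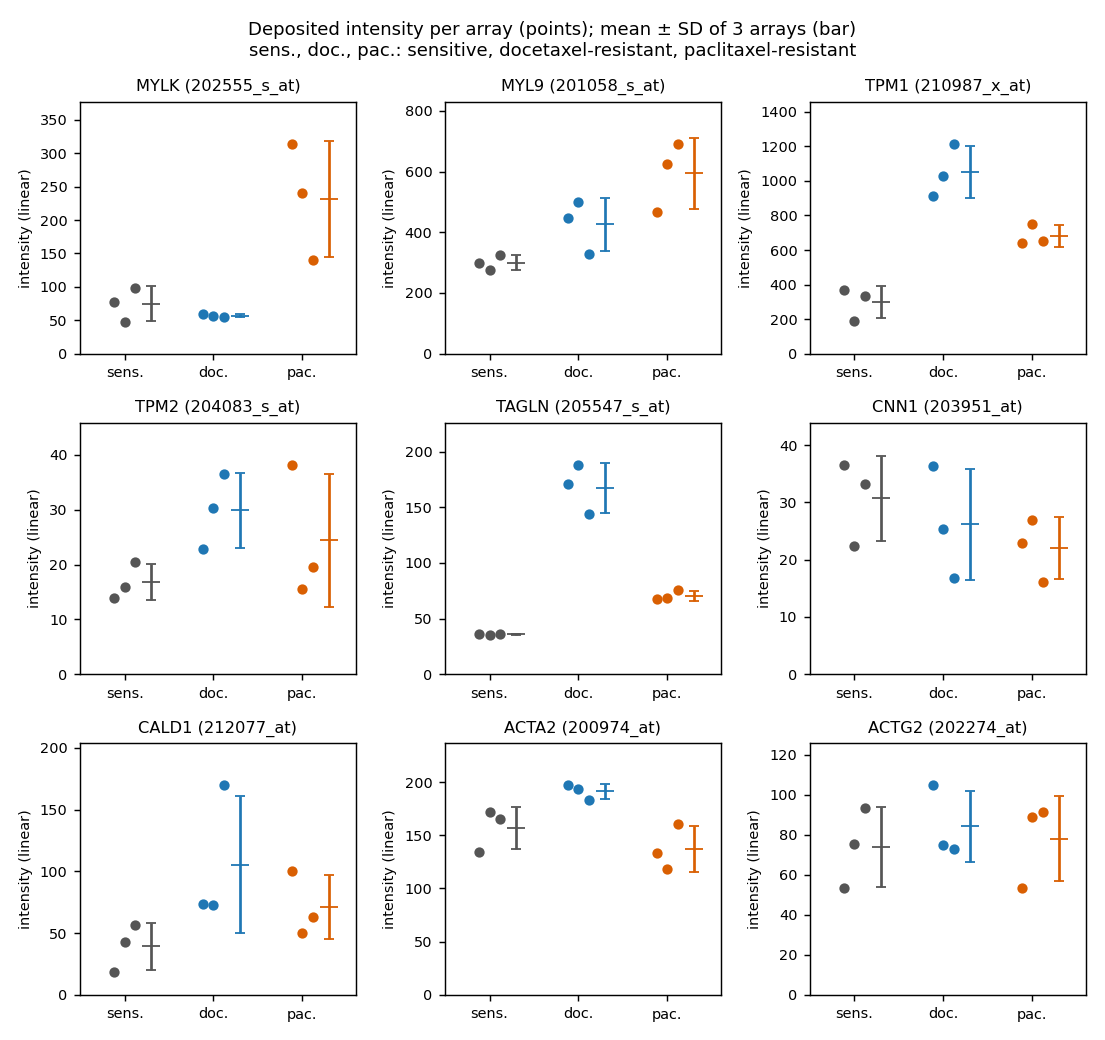
Deposited intensity, on linear axes from 0, of the brightest probe set of each of the 9 contractile genes, with 1 point per array and bars for the mean ± SD of the 3 arrays of sensitive, docetaxel-resistant and paclitaxel-resistant cells. TAGLN is highest in the docetaxel-resistant arrays (144 to 188), MYLK in the paclitaxel-resistant arrays (141 to 314), and ACTG2 overlaps in all 3 groups.

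Tropomyosin 1, encoded by TPM1, had the largest log2 rise of the 9 genes. Its probe set 210986_s_at read 304, 165 and 278 on the 3 sensitive arrays, 928, 980 and 1195 on the docetaxel-resistant arrays, and 579, 431 and 461 on the paclitaxel-resistant arrays. The 3 groups did not overlap, and the docetaxel-resistant cells stood highest. The mean went from 248.9 ± 73.7 (SD, n = 3) to 1034 ± 141 (n = 3), 4.16 times as high, and to 490.4 ± 78.4 (n = 3), 1.97 times as high. On the log2 scale TPM1 rose by 1.93 ± 0.15 (SE) with docetaxel resistance (limma adjusted p = 6.66e-06) and by 0.94 ± 0.15 with paclitaxel resistance (limma adjusted p = 0.00127).

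A second TPM1 probe set, 206116_s_at, read 149, 79.6 and 139 in sensitive cells, 382, 432 and 560 in docetaxel-resistant cells, and 239, 212 and 214 in paclitaxel-resistant cells. It gave the same order of groups, again without overlap, with rises of 1.66 ± 0.16 (limma adjusted p = 2.87e-05) and 0.78 ± 0.16 (limma adjusted p = 0.00452). The paclitaxel call was lost without sensitive replicate 2, at an adjusted p of 0.0553. Probe set 210987_x_at read 370.0, 191 and 337 in sensitive, 913, 1031 and 1214 in docetaxel-resistant, and 639, 753 and 653 in paclitaxel-resistant cells. The 3 groups were again apart, and its rises were 1.72 ± 0.17 (limma adjusted p = 3.9e-05) and 1.16 ± 0.17 (limma adjusted p = 0.000575). The fourth probe set, 206117_at, stayed between 17.1 and 30.6 on all arrays and was not called in either line (-0.07 and -0.26). The 3 probe sets that moved carry the suffix _s_at or _x_at, which marks probes shared by several transcripts or by other genes, so a share of their signal may come from related transcripts.

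TPM2 encodes the other tropomyosin of the set, and its signal was dim. Probe set 204083_s_at read 14.0, 15.9 and 20.5 in sensitive, 22.9, 30.2 and 36.5 in docetaxel-resistant, and 38.2, 15.5 and 19.6 in paclitaxel-resistant cells. The docetaxel-resistant arrays all lay above the sensitive ones, while the paclitaxel-resistant arrays overlapped both. Neither difference was called (0.40, limma adjusted p = 0.171, and 0.23, limma adjusted p = 0.471). The second probe set, 212654_at, was at most 5.44 on every array and gives no usable level.

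TAGLN encodes transgelin, also known as SM22-alpha, an actin-bundling protein and a standard marker of smooth muscle differentiation. Its single probe set, 205547_s_at, read 36.3, 35.2 and 36.2 on the sensitive arrays, 171, 188 and 144 on the docetaxel-resistant arrays, and 67.6, 68.2 and 75.7 on the paclitaxel-resistant arrays. Passages of a line lay close together, and the 3 lines were clearly apart. The means were 35.9 ± 0.606, 167.6 ± 22.4 and 70.5 ± 4.53 (SD, n = 3 each), so docetaxel-resistant cells read 4.67 times and paclitaxel-resistant cells 1.96 times the sensitive mean. TAGLN rose by 1.64 ± 0.16 (limma adjusted p = 3.61e-05) and by 0.67 ± 0.16 (limma adjusted p = 0.0106).

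Caldesmon, the product of CALD1, was read by 8 probe sets, of which 5 were called higher with docetaxel resistance and 2 with paclitaxel resistance. The one that rose in both lines with the brighter signal, 214880_x_at, read 28.8, 22.5 and 21.3 in sensitive, 60.9, 47.9 and 122 in docetaxel-resistant, and 63.1, 58.3 and 60.5 in paclitaxel-resistant cells. Every resistant array lay above every sensitive array. It rose by 0.98 ± 0.20 (limma adjusted p = 0.00618) and by 0.88 ± 0.20 (limma adjusted p = 0.0101), and the paclitaxel call was lost without sensitive replicate 2 (adjusted p = 0.0531). The other, 201615_x_at, read 7.58, 11.5 and 7.05 in sensitive, 22.02, 20.4 and 35.2 in docetaxel-resistant, and 24.7, 26.9 and 25.1 in paclitaxel-resistant cells. It rose by 0.69 (limma adjusted p = 0.00757) and by 0.74 (limma adjusted p = 0.00484), from a sensitive level under 16.

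Probe set 201617_x_at of CALD1 read 11.01, 9.99 and 11.96 in sensitive, 25.2, 27.7 and 63.2 in docetaxel-resistant, and 27.4, 21.2 and 25.7 in paclitaxel-resistant cells. It rose by 0.87 in docetaxel-resistant cells (limma adjusted p = 0.00786), while the paclitaxel difference of 0.57 stayed outside the threshold (limma adjusted p = 0.0564) although its arrays did not overlap the sensitive ones. Without docetaxel-resistant replicate 3, that difference was called at 0.00842. Probe sets 201616_s_at (1.01, limma adjusted p = 0.0138) and 212077_at (0.94 ± 0.30, limma adjusted p = 0.0496) were called in docetaxel-resistant cells, while their paclitaxel differences of 0.25 and 0.59 were not. Docetaxel-resistant replicate 3 was the highest array for all 5 called CALD1 probe sets, and without it 201616_s_at went to 0.0566 and 212077_at to 0.203. The call of 212077_at was also lost without sensitive replicates 1 (0.142) or 2 (0.0798), docetaxel-resistant replicate 1 (0.0627), or paclitaxel-resistant replicates 2 (0.0623) or 3 (0.0705). Over all 21 alternative settings it held in 7 and was lost in 14. The docetaxel calls of 201616_s_at and 201617_x_at were lost in 4 settings and 1 setting, and the paclitaxel call of 214880_x_at in 2. The remaining probe sets, 205525_at, 215198_s_at and 215199_at, lay near an intensity of 16 and were not called.

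**Figure D2:**
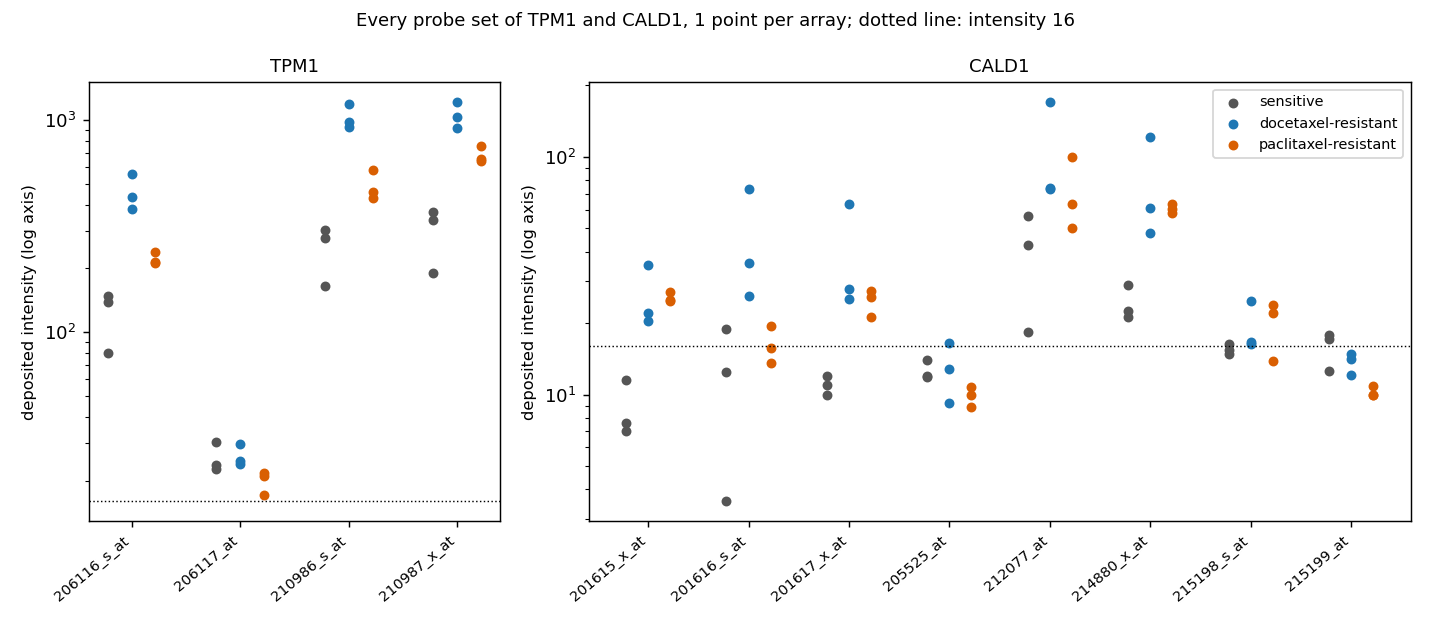
Deposited intensity on each array, on log axes, for the 4 TPM1 and 8 CALD1 probe sets in sensitive, docetaxel-resistant and paclitaxel-resistant cells, with a dotted line at 16. In 3 TPM1 probe sets the 3 groups lie apart in 1 order, 206117_at stays between 17.1 and 30.6, and 1 docetaxel-resistant array stands above the others in the called CALD1 probe sets.

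CNN1, which encodes calponin 1 and is a late marker of smooth muscle differentiation, did not follow TAGLN. It read 36.6, 22.3 and 33.2 in sensitive, 36.3, 25.3 and 16.9 in docetaxel-resistant, and 22.9, 27.0 and 16.2 in paclitaxel-resistant cells. The 3 groups overlapped throughout. The differences were -0.24 (95% interval -0.67 to 0.19, limma adjusted p = 0.473) and -0.35 (-0.78 to 0.08, limma adjusted p = 0.273), so a log2 rise of the size seen for TAGLN lies outside both intervals.

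The actins of smooth muscle were likewise not called. ACTA2, which encodes the alpha-smooth muscle actin of myofibroblasts, read 135, 171 and 165 with 200974_at in sensitive, 197, 193 and 183 in docetaxel-resistant, and 133, 118 and 161 in paclitaxel-resistant cells. Its docetaxel-resistant arrays were highest by level, but the normalised values overlapped those of sensitive cells, with a difference of 0.10 (95% interval -0.30 to 0.51, limma adjusted p = 0.774), and paclitaxel-resistant cells differed by -0.22 (-0.63 to 0.18, limma adjusted p = 0.486). ACTG2, the gamma actin of enteric smooth muscle, read 53.4, 75.6 and 93.1, then 105, 74.9 and 73.0, then 53.4, 89.0 and 91.5. The second ACTA2 probe set, 215787_at, was under 16 on 8 of the 9 arrays and was not called (0.12 and -0.0041). The differences of ACTG2 were -0.03 (-0.58 to 0.52) and -0.02 (-0.57 to 0.53), with limma adjusted p-values of 0.961 and 0.971.

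MYLK, the kinase that starts contraction, rose in the paclitaxel-resistant line. Its probe set 202555_s_at read 77.8, 47.5 and 99.0 in sensitive, 59.5, 56.2 and 54.7 in docetaxel-resistant, and 314, 241 and 141 in paclitaxel-resistant cells. Every paclitaxel-resistant array stood above all 6 others, although the 3 passages differed widely among themselves. The means were 74.8 ± 25.9, 56.8 ± 2.44 and 232 ± 86.8 (SD, n = 3 each), so paclitaxel-resistant cells read 3.10 times the sensitive mean. MYLK rose by 1.38 ± 0.23 with paclitaxel resistance (limma adjusted p = 0.00137) and differed by -0.43 ± 0.23 with docetaxel resistance, which was not called (limma adjusted p = 0.239). The paclitaxel call held in all 20 alternative settings in which this probe set was tested, with adjusted p-values of 0.00034 to 0.015.

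MYL9, the regulatory light chain that MYLK phosphorylates, read 300.0, 274 and 325 in sensitive, 448, 501 and 328 in docetaxel-resistant, and 465, 625 and 690 in paclitaxel-resistant cells. The paclitaxel-resistant arrays all lay above the sensitive ones. Mean intensities were 299.8 ± 25.7, 425.8 ± 88.5 and 593 ± 116 (SD, n = 3 each). The rise of 0.89 ± 0.22 with paclitaxel resistance was called (limma adjusted p = 0.0141), and it was lost without paclitaxel-resistant replicate 2 (0.0594) or 3 (0.0609). The docetaxel difference of 0.35 (95% interval -0.13 to 0.83) was not called (limma adjusted p = 0.328).

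**Figure D3:**
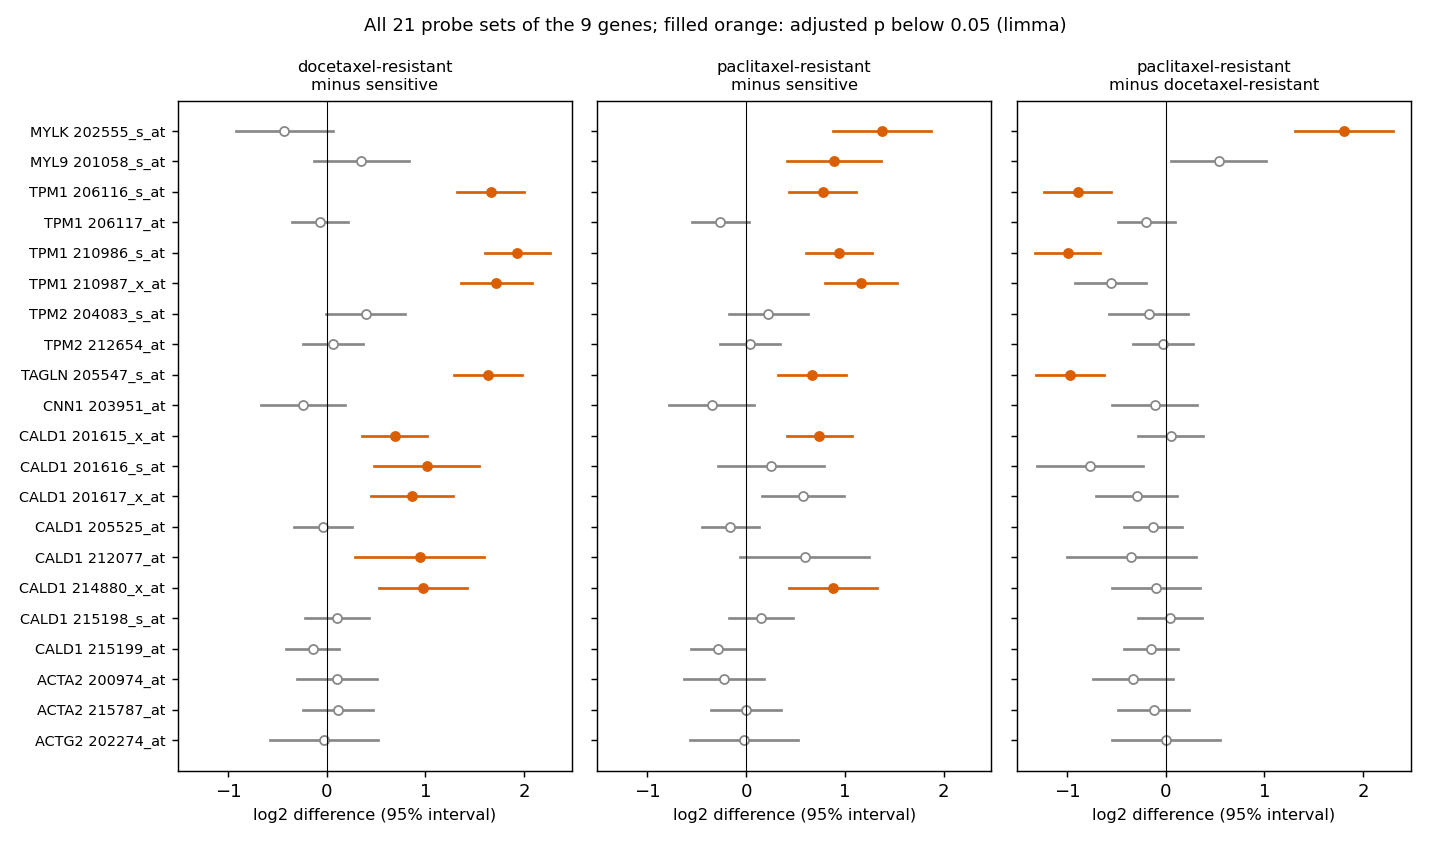
Log2 difference with its 95% interval for all 21 probe sets in 3 panels on a common axis: the docetaxel-resistant line against sensitive cells, the paclitaxel-resistant line against sensitive cells, and the paclitaxel-resistant against the docetaxel-resistant line, with filled orange points where the limma adjusted p was below 0.05. TPM1 and TAGLN lie furthest right in the first panel (TAGLN at 1.64), MYLK in the others (1.38 and 1.81), and the intervals of CNN1, ACTA2 and ACTG2 span 0 in all 3.

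Set directly against each other, the paclitaxel-resistant and docetaxel-resistant lines differed in 4 of the 21 probe sets, 1 higher and 3 lower in paclitaxel-resistant cells, against 0.801% of all probe sets called in each direction. By normalised values that do not overlap, 1 lay wholly higher and 7 wholly lower, against 9.23% and 10.1% of all. MYLK was higher in paclitaxel-resistant cells by 1.81 ± 0.23 (limma adjusted p = 0.00204), 4.08 times on the intensity scale. TAGLN was lower by 0.97 (log2 difference -0.97, limma adjusted p = 0.0109), and TPM1 was lower with 210986_s_at (-0.99, limma adjusted p = 0.00793) and 206116_s_at (-0.89, limma adjusted p = 0.0158). Its 210987_x_at did not reach the threshold (-0.56, limma adjusted p = 0.139), and MYL9 did not either (0.54, limma adjusted p = 0.324). The lines were kept in different drugs at different doses, 7 nM and 2 nM, so this compares lines and not drugs at a matched dose.

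The MYLK difference between the lines held in all 20 settings, and the lower values were less steady. TAGLN went to 0.0592 without docetaxel-resistant replicate 1, to 0.0674 without replicate 2, and to 0.0642 with a pseudocount of 1. TPM1 206116_s_at was lost without docetaxel-resistant replicates 2 (0.0557) or 3 (0.0641), without paclitaxel-resistant replicates 1 (0.0506), 2 (0.0622) or 3 (0.0642), with a pseudocount of 1 (0.103) and on the deposited scale (0.0618). TPM1 210986_s_at was lost with a pseudocount of 1 (0.0668) and on the deposited scale (0.0519).

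The kind of probe set moved with these calls. Of the 21 probe sets, 12 carry the suffix _x_at or _s_at, and these gave 8 of the 9 calls with docetaxel resistance, all 8 with paclitaxel resistance and all 4 between the lines. The 9 plain _at probe sets gave 1, 0 and 0 calls by limma, with 1, 1 and 0 at an unadjusted p below 0.05. MYLK, MYL9 and TAGLN have only a probe set with the suffix, and every probe set of CNN1, ACTA2 and ACTG2 is a plain one. The part of shared probes in the differences was not tested.

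The motor that these proteins serve was read by 11 genes for myosin heavy and light chains, of which MYL1 and MYL4 encode light chains of striated muscle and were not called. In the lists that follow each gene stands for its probe set of highest mean, and by that count 10.5% of all 11963 genes were called higher and 9.81% lower with docetaxel resistance, and 10.6% and 10.4% with paclitaxel resistance. With docetaxel resistance 5 rose and 2 fell, and with paclitaxel resistance 5 rose and 1 fell, while the medians of the list were -0.01 and 0.02. The light chain gene MYL6 fell in both lines, from a mean of 4009 to 2792 and 2560 (-0.44 and -0.54, limma adjusted p = 0.0222 and 0.00717). A second, much dimmer MYL6 probe set was not called (-0.04 and 0.06). MYL6B fell with docetaxel resistance (-0.46, limma adjusted p = 0.0489) and was not called with paclitaxel resistance (-0.43, limma adjusted p = 0.065). MYL12A, a regulatory light chain of non-muscle myosin that MYLK also phosphorylates, read 220, 174 and 186 in sensitive, 583, 645 and 696 in docetaxel-resistant, and 753, 684 and 568 in paclitaxel-resistant cells. The resistant arrays were all above the sensitive ones and overlapped each other. MYL12A rose by 1.56 ± 0.13 (limma adjusted p = 1.43e-05) and by 1.67 (limma adjusted p = 8.98e-06), in both lines, while MYL9 was called in the paclitaxel-resistant line and missed the threshold in the other.

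MYL12B, its close relative, went from a mean of 614.7 to 1178 and 1131, with rises of 0.92 and 0.91 (limma adjusted p = 0.00604 and 0.00598) that were lost without sensitive replicate 2 (0.0621 and 0.0747). The heavy chain MYH9 went from 1168 to 1777 and 2563, with 0.57 (limma adjusted p = 0.0372) and 1.15 (limma adjusted p = 0.000683). The docetaxel call of MYH9 was lost without sensitive replicate 1 (0.112), docetaxel-resistant replicates 1 (0.122), 2 (0.0767) or 3 (0.0643), or paclitaxel-resistant replicate 2 (0.0536). The heavy chain MYH10 went from 76.3 to 183 and 194, with rises of 0.91 (limma adjusted p = 0.00985) and 1.14 (limma adjusted p = 0.00248).

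**Figure D4:**
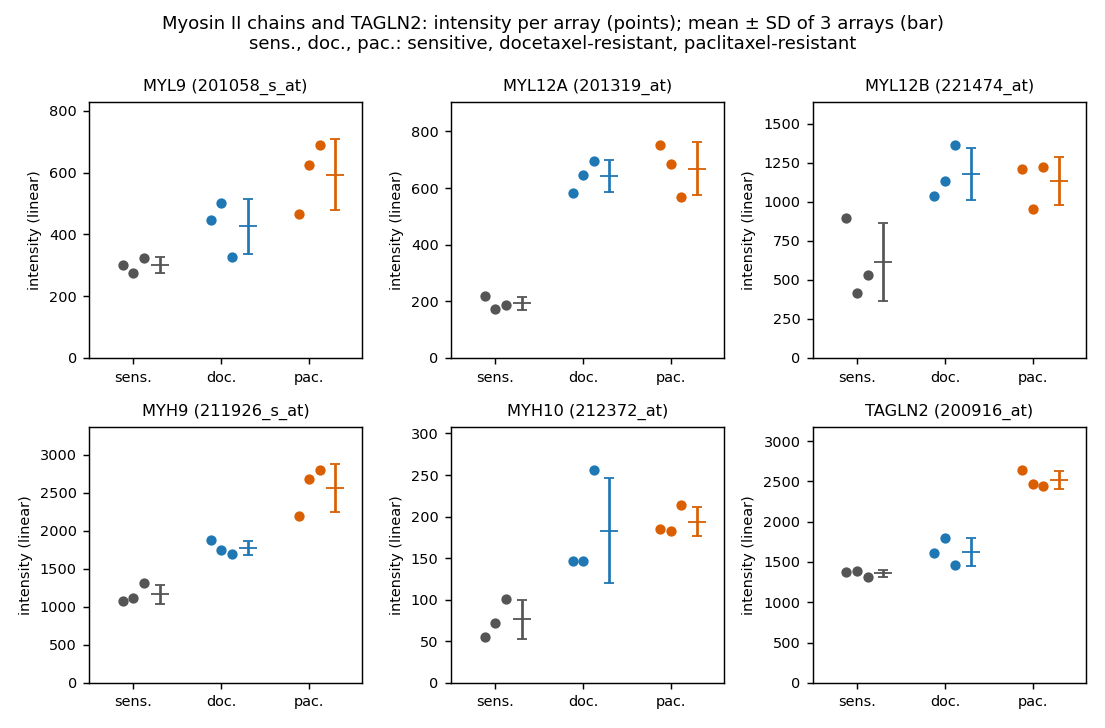
Deposited intensity, on linear axes from 0, of the myosin II light chain genes MYL9, MYL12A and MYL12B, the heavy chain genes MYH9 and MYH10, and TAGLN2, a relative of TAGLN described further on, with 1 point per array and bars for the mean ± SD of 3 arrays per group. MYL12A is higher in all 6 resistant arrays (568 to 753) than in the sensitive arrays (174 to 220), and TAGLN2 stands apart in the paclitaxel-resistant arrays (2438 to 2645).

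A list for the control of light chain phosphorylation held 16 measured genes. With docetaxel resistance 2 rose and 2 fell, and with paclitaxel resistance 3 rose and 2 fell, which is near the share of all genes. The list holds ZYX, which is also counted among the SRF targets below and was not called. PPP1R12A, the targeting subunit of the light chain phosphatase, was not called with its brightest probe set (0.21 and 0.45), but its other 2 probe sets, which were under 16 on average in sensitive cells, were called higher in both lines (1.06 and 1.02 with docetaxel, 1.29 and 1.32 with paclitaxel resistance). ROCK2 encodes a kinase that phosphorylates the light chain and its phosphatase. With its brighter probe set it rose by 0.65 (limma adjusted p = 0.00992) and 0.84 (limma adjusted p = 0.00221), from a mean of 99.6 to 191 and 200.2. A second, dimmer ROCK2 probe set (means 59.7, 66.2 and 67.5) was not called in either line (-0.07 and 0.05). ARHGEF12, an exchange factor that activates RhoA, rose by 0.96 (limma adjusted p = 0.00436) and 1.11 (limma adjusted p = 0.00169). PPP1R14B, an inhibitor of the phosphatase, fell by 0.88 and by 0.84 (limma adjusted p = 0.00238 and 0.00288).

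RHOB, a small GTPase near RHOA, was called with paclitaxel resistance (0.85, limma adjusted p = 0.0246) and not with docetaxel resistance (0.24, limma adjusted p = 0.546). The paclitaxel call was lost without sensitive replicates 1 (0.0817) or 2 (0.0802) or paclitaxel-resistant replicates 2 (0.0526) or 3 (0.0868). RHOA itself was not called (0.07 and -0.01), nor was ROCK1 (0.41 and 0.32).

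A further list of 12 measured genes held SRF, its cofactors, and the TEAD factors with their coactivators. With docetaxel resistance 1 rose and 3 fell, and with paclitaxel resistance 1 rose and 5 fell. The 1 that rose in each line was WWTR1, and TEAD4 and YAP1 were among those that fell in both. SRF had means of 204, 178 and 139, with a docetaxel difference of -0.33 (limma adjusted p = 0.208) and a fall of 0.54 with paclitaxel resistance (limma adjusted p = 0.0424). A second, dimmer SRF probe set differed by 0.14 with paclitaxel resistance and was not called (limma adjusted p = 0.666). The call of the brighter one was lost without sensitive replicates 1 (0.0806) or 2 (0.0603), docetaxel-resistant replicates 1 (0.0553) or 2 (0.0653), or paclitaxel-resistant replicates 1 (0.123) or 3 (0.15). The actin-sensing cofactor MRTFA was not called (-0.14 and 0.29). ELK1, an ETS factor that joins SRF on DNA, fell by 1.47 (limma adjusted p = 0.000131) and by 1.24 (limma adjusted p = 0.000398). TEAD4, a factor that binds the MCAT element, fell by 1.06 and 1.04. WWTR1, a coactivator of the TEAD factors, rose with its brightest probe set by 1.09 and 1.45 (limma adjusted p = 0.00243 and 0.000359). A dimmer WWTR1 probe set was called with paclitaxel resistance (0.50, limma adjusted p = 0.0278) and not with docetaxel resistance (0.24). Another (means 70.5, 67.0 and 69.8) was not called in either line (-0.24 and -0.11).

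Other cytoskeletal targets of SRF did not move as a block. Of 20 measured, 4 rose and 2 fell with docetaxel resistance, and 4 rose and 3 fell with paclitaxel resistance, with list medians of -0.13 and -0.08. PDLIM5, an adaptor of the actin cytoskeleton, rose by 1.61 and 1.31, PALLD, an actin cross-linker, by 1.29 and 1.19, and the secreted matrix protein gene CCN1 by 1.49 and 1.35. The fibronectin receptor subunit ITGA5 fell by 0.94 and by 0.74. FHL2 fell by 0.86 with paclitaxel resistance (limma adjusted p = 0.00393) and was not called with docetaxel resistance (-0.50, limma adjusted p = 0.0602).

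Close relatives of the contractile genes included 3 of 11 that rose in each line and none that fell, and 2 of the 3 in each line were MYL12A and MYL12B, already counted among the myosin chains. TAGLN2, the widely expressed relative of TAGLN, read 1377, 1389 and 1310 in sensitive, 1610, 1799 and 1457 in docetaxel-resistant, and 2645, 2470 and 2438 in paclitaxel-resistant cells. The paclitaxel-resistant arrays stood above all others, so TAGLN2 was highest in the line where TAGLN was not. It rose by 0.91 ± 0.14 (limma adjusted p = 0.000855) in that line and was not called in the other (0.22, limma adjusted p = 0.34). Its difference between the resistant lines, 0.69, was called (limma adjusted p = 0.0306), but not once any single resistant array was left out (0.0759 to 0.113). CNN3, the relative of CNN1 in non-muscle cells, rose with docetaxel resistance by 0.81 (limma adjusted p = 0.0182; lost without sensitive replicate 2, at 0.0926, or docetaxel-resistant replicate 3, at 0.0764) and was not called with paclitaxel resistance (0.34). The cytoplasmic actin gene ACTB was not called with its brightest probe set (0.33 and 0.08), while a second one, nearly as bright, was called with docetaxel resistance (0.41, limma adjusted p = 0.0444) and not with paclitaxel resistance (0.15).

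Markers of other contractile or mesenchymal cells were set beside these values. In bulk RNA, more cells of a type and more RNA per cell cannot be told apart. Of 6 measured smooth muscle markers 1 was called in each line, MYH11, through 1 probe set (means 202, 344 and 333), while DES was not called at 41.8, 35.8 and 34.9. That list holds ACTA2 and CNN1, which are described above. The summed intensity of its other 4 measured genes was 487 to 552, 588 to 636 and 574 to 725 in sensitive, docetaxel-resistant and paclitaxel-resistant arrays, and 680 to 751, 788 to 870 and 719 to 902 with ACTA2 and CNN1. Of 8 fibroblast markers 2 rose with docetaxel resistance, FBN1 (40.6 to 221) and PDGFRB (36.4 to 101), and 1 rose with paclitaxel resistance, PDGFRB (98.8). The matrix genes COL1A1 (101, 107 and 95.8), COL1A2 (37.2, 36.3 and 34.5) and DCN (40.2, 39.1 and 37.4) were not called, and LUM was under 16 on all arrays. The summed list ran from 328 to 346, from 517 to 674 and from 382 to 470. FBN1 (40.6, 221 and 77.9) made most of the gap between the resistant lines. The median log2 differences of the list were -0.08 and -0.14. Of 4 measured myoepithelial markers only EGFR was called (317, 1045 and 961), and their sum ran from 331 to 424, from 848 to 1314 and from 817 to 1132. None of 5 skeletal muscle markers was called by limma, with adjusted p-values of 0.165 or more. The part of these markers in the results was not tested.

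Genes whose profile over the 9 arrays was closest to a contractile gene were found by the smallest root mean square difference of centred log2 values among 5974 genes. Nearest to MYLK were ANGPTL4 (0.335), INHBB (0.363) and CST4 (0.375), and ANGPTL4 differed from sensitive cells by -0.09 with docetaxel and 1.51 with paclitaxel resistance. Nearest to TPM1 were RBBP7 (0.141), MID1 (0.146) and HACD3 (0.178). Nearest to TAGLN were TBL1X (0.174), ARHGEF5 (0.225) and TP53TG1 (0.229). These likenesses describe 9 arrays in 3 groups and carry no test.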

How the data were processed

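Total RNA of 9 cultures (5 µg each, per the labels) was measured on Affymetrix HU133A arrays. The deposited values are linear probe set intensities made by the authors with Affymetrix Expression Console 1.1.2 and PLIER, per the submitters' processing notes, whereas the sources used here do not state how background, normalisation and detection were handled. Because array medians differed by 0.27 on the log2 scale, above a limit of 0.2, log2(intensity + 16) was quantile normalised over the human probe sets (68 control probe sets were left out of the 22283). One limma 3.58.1 model (R 4.3.3) with 3 group means, tested on simulated data, gave all differences, adjusted by Benjamini-Hochberg over 22215 probe sets and called below 0.05. The fit has 6 residual and 5.82 prior degrees of freedom. Only 3 arrays per group limit the precision, with a median SE of 0.164 in the docetaxel comparison. Genes were named from GEO's platform annotation, and probe sets with several genes were not named.

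Every probe set of the 9 genes is described. From each pathway list up to 4 called genes with the largest difference were named, plus MYL12A, MYH9, RHOA, ROCK1, SRF, MRTFA, ACTB and TAGLN2. A few others, among them PPP1R12A and YAP1, were named beside them. A gene stands for its probe set of highest mean. Profiles were compared for the 3 genes of widest range. The members and lists were chosen with earlier results of these data known. Alternatives were other pseudocounts (1 and 64), normalisations, filters, probe set choices, spread models, the replicate number as a block, and arrays left out.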

Additional observations from a re-analysis of the deposited data

Results flagged for a closer look

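In 4 probe sets of 3 contractile genes, the difference from sensitive cells itself differed between the 2 resistant lines. The test was limma's contrast of paclitaxel-resistant against docetaxel-resistant cells, in which 1.6% of all probe sets were called. MYLK had the widest gap, at 1.81 on the log2 scale (adjusted p = 0.00204), with differences from sensitive cells of 1.38 in the paclitaxel and -0.43 in the docetaxel line. TAGLN had a gap of -0.97 (adjusted p = 0.0109), from 0.67 against 1.64. TPM1 had gaps of -0.99 with 210986_s_at (adjusted p = 0.00793), from 0.94 against 1.93, and of -0.89 with 206116_s_at (adjusted p = 0.0158), from 0.78 against 1.66. In TAGLN and TPM1 both lines rose and the docetaxel-resistant line rose further, whereas for MYLK the docetaxel difference was not called. The gap of MYLK was called in all 20 alternative settings. That of TAGLN was lost in 3 settings, and those of TPM1 in 2 (210986_s_at) and 7 (206116_s_at).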

How the results depend on the processing

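Over 21 alternative settings, 1114 of 1218 values of the contractile probe sets kept direction and call, 36 lost a call, 5 gained one, none reversed and 63 that were never called changed sign. Without _x_at and _s_at probe sets, 0 of 9 were called by limma in each comparison (1, 1 and 0 at an unadjusted p below 0.05), and all-probe-set calls went to 1723, 1838 and 125 of 11813. With 1 probe set per gene the calls were 3, 4 and 2 of 9, and 2529 and 2586 of 11963 in the comparisons with sensitive cells. Between the resistant lines a pseudocount of 1 left 1 contractile call and 84 among all, the deposited scale 2 and 215, array weights gave 1123 among all, and leaving out the arrays of lowest and highest median gave 119 (1660 in the docetaxel comparison). Leaving out 1 array gave 7 to 9, 6 to 9 and 2 to 4 contractile calls, and 2431 to 3970, 2981 to 4263 and 111 to 352 among all. Calls were 52.9% higher in the docetaxel comparison (66.1% on the deposited scale) and, between the lines, 178 of 356 were higher (39.1% deposited, 36.5% with a pseudocount of 64). The cause of these shifts was not tested.

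Same-numbered arrays share only a number: their deviations correlated at -0.564 to 0.399, over 0.1 in 3 of 9 pairs, and 2 of 9 arrays correlated best with their own number. With that number as a replicate block the contractile calls were 8, 8 and 4 and the calls among all probe sets 3596, 3821 and 214. Calls lost under the block were CALD1 212077_at (0.052) and MYH9 (0.0507) with docetaxel resistance and TAGLN2 between the lines (0.0619). Dim probe sets near 16 give no firm difference.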
